A study of Macaca mulatta with 2 samples.

Results

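Glycolysis, the pentose phosphate pathway and lactate export were followed through 34 genes in primary Sertoli cell cultures of the rhesus macaque (Macaca mulatta). The members were the genes of glucose uptake, glycolysis, lactate handling and pentose phosphate metabolism named by symbol, and every gene probe carrying one of those symbols on the arrays was taken. They were 34 of 21495 gene names and 61 of 34973 named probes. Messenger RNA was measured on 2 one-colour oligonucleotide arrays, 1 for each group. The infant group was a culture from the testes of males less than 3 months old. The pubertal group came from older juveniles, aged 18 to 22 months and driven into puberty with gonadotropin-releasing hormone, infused at 0.15 µg/min in pulses of 2 min with 3 h between pulses, for 4 to 5 weeks. Both cultures had been exposed for 12 h to follicle-stimulating hormone (5 ng/ml) together with testosterone (100 nM), so no untreated culture stands beside them. No genetic change is named for either group, and how many animals stand behind each culture is not stated.

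Sertoli cells are the supporting somatic cells of the seminiferous tubule. They are known to take up glucose, break most of it down to pyruvate and lactate, and pass the lactate to germ cells, which use it as fuel behind the blood-testis barrier. The pentose phosphate pathway branches off at glucose phosphate and yields reducing power and ribose, and its non-oxidative arm returns carbon to glycolysis through transaldolase and transketolase. Follicle-stimulating hormone is a known stimulus of glucose uptake and lactate output in cultured Sertoli cells.

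With 1 array in each group no test between groups exists, and animal, culture, age and hormone infusion cannot be told apart. Signals are given as multiples of the array's 75th percentile, the pubertal one first, and differences as log2 values, pubertal minus infant. The share of gene spots well above background was 54.9% and 54.8%. The error after the ± sign is that of the scanner software's model for the spots. It covers the array and not the animal or the culture, and its median over all genes was 0.20. A gene counted as measured where a probe was well above background on both arrays, which held for 14243 genes, and took the mean of such probes. Levels are compared between arrays and not between genes, since the human probes bind monkey transcripts unequally. The exception is the summed signals of cell type markers, which add levels over genes, so that bright probes weigh most in them.

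The probes on which several of the differences rest are given here, because the value of a member is the brightness of such a spot and human probes read monkey RNA. Each is 60 bases long and written 5′ to 3′ in the letters of the array design. Capitals mark the longest run that the probe has in common with a probe of any other gene on the array (runs of at least 12 bases in the same orientation were searched), except for GT_HS_44k_2235 and GT_HS_44k_2236, where they mark the run shared by that pair.
ENO1, probe GT_44k_24_P105501: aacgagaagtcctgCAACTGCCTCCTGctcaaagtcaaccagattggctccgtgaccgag
ENO1, probe GT_44k_23_P137391: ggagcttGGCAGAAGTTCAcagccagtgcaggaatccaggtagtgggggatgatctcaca
ALDOA, probe GT_44k_23_P88963: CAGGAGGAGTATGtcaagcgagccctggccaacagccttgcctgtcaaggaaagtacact
GAPDH, probe GT_44k_23_P13899: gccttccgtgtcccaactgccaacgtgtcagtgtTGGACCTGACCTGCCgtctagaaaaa
GAPDH, probe GT_HS_44k_2235: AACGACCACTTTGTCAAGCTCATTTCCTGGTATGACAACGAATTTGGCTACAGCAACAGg
GAPDH, probe GT_HS_44k_2236: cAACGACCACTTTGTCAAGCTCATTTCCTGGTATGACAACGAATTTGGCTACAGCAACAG
LDHA, probe GT_44k_32_P44568: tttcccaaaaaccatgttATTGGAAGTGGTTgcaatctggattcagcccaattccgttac
PGD, probe GT_44k_23_P126623: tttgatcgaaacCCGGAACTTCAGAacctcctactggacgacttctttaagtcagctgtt
TKT, probe GT_44k_23_P92082: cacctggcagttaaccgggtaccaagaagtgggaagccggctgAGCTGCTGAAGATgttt
SLC2A8, probe GT_44k_24_P64182: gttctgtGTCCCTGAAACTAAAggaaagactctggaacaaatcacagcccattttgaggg
BSG, probe GT_44k_24_P202769: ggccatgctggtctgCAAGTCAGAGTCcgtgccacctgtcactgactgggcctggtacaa
TKTL1, first 30 bases of probe GT_44k_23_P259901: gatgTCCTGTGCTGCTTGTGatgagagcct

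The probes GT_HS_44k_2235 and GT_HS_44k_2236 for GAPDH are shifted by a single base and share 59 bases, so they are close to a repeat measurement of the same stretch. In TKTL1 the longest such run was 16 bases, with a probe of CYBRD1. Among the 61 member probes the GC content ran from 31.7% to 71.7%, with a median of 45.0%. No pair of member genes had probes with 12 or more bases in common, the transketolase genes TKT, TKTL1 and TKTL2 included. This compares probes with probes only and says nothing of matches to the rest of a transcript. The design gives these probes no genome position, and positions were not used here.

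On the pubertal array most genes of glycolysis and of the pentose phosphate pathway had lower signals than on the infant array, relative to the other genes. Of the 34 members, 32 were measured on both arrays, and 27 of these had a difference below 0, that is 84.4%, where 54.2% of all measured genes lay below 0. The other 5 lay above 0, as did 45.8% of all measured genes. At least 2-fold lower were 6 members (18.8%, against 6.32% of all measured genes). They were the lactate exporter SLC16A3, pyruvate kinase PKM2, the glucose transporters SLC2A1 and SLC2A3, enolase ENO1 and phosphogluconate dehydrogenase PGD. At least 1.5-fold lower were 18 members, where 16.8% of all measured genes passed that mark. The only member at least 2-fold higher, where 7.32% of all genes passed that mark, was the transketolase-like gene TKTL1. The median over the members was -0.66, and over all genes it was -0.06.

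These directions are relative to the 75th percentile. With the arrays scaled on the added spike-in RNA instead, every difference rises by 1.00. The median of the members is then 0.34 and that of all genes 0.94, and 6 members remain below 0. Scaling each array on its median lowers every difference by 0.16. The 6 members at least 2-fold lower were below 0, and the 5 members above 0 (SLC2A8, ENO2, BSG, PDK4 and TKTL1) were above 0, under each of the 12 alternative ways of processing that were run. On the spike-in scale PGD is at -0.0031, so its sign there has no weight. The gap between the median of the members and that of all genes was -0.60 as reported and lay between -0.47 and -0.63 under the 12 alternatives.

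**Figure D1:**
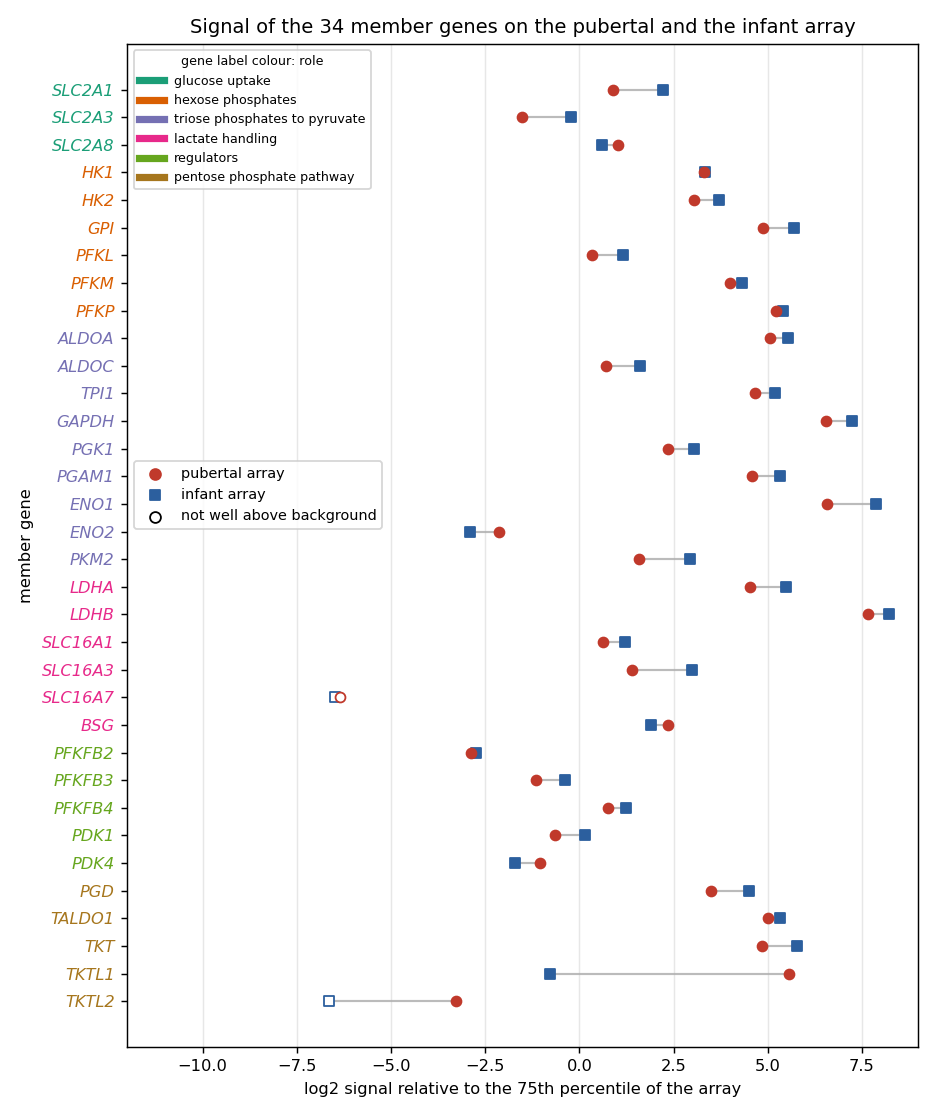
Log2 signal minus that of the array's 75th percentile (horizontal axis) of the 34 member genes (vertical axis), for the pubertal array (circles) and the infant array (squares), with open symbols where the gene was not well above background. Most squares lie to the right of their circles, whereas TKTL1 is far to the right on the pubertal array (47.7 against 0.579 multiples of the 75th percentile); with spike-in scaling all circles move right by 1.00.

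The cultures were checked against cell type markers. For the summed signals a gene took the mean log2 signal of all its probes, also of those not well above background. All 15 Sertoli cell markers were measured on both arrays, and their summed signal was 556 multiples of the 75th percentile in the pubertal and 623 in the infant culture, of which VIM alone gave 266 and 302. Their median difference was 0.42, with 10 of 15 above 0, and past 2-fold lay 4 on the higher and 2 on the lower side. The Sertoli marker TF had 78.3 and 7.87 over the 2 of its 4 probes that were measured. Its other probes lower its share in the sum, so the order of the Sertoli sums has no weight. Germ cell markers (14 genes) gave 27.6 and 39.1, of which UCHL1 alone gave 12.0 and 34.3. Of these 14, 7 had differences above 0, 1 (UCHL1) was below 0, 4 (DDX4, MAGEA4, KIT and SYCP3) were detected in the pubertal culture only and 2 on neither. Of 8 markers of late germ cells 7 were not well above background on either array, and the other, AKAP4, had 8.69 and 6.98. Leydig cell markers summed to 48.1 and 153, of which STAR alone gave 5.31 and 100.4, and the 6 measured ones were split, 3 below and 3 above 0. The sums were for peritubular myoid cell markers 134 and 72.7, for macrophage markers 4.29 and 0.908 and for endothelial markers 0.769 and 0.352. All 6 myoid markers were above 0 and 4 were at least 2-fold higher, while CNN1 alone gave 81.4 and 53.0. Of the measured macrophage markers 4 were above 0 and 1 (CD68, -0.94) below, and CD163 alone gave 3.15 and 0.371. The 4 measured endothelial markers were above 0, 1 of them past 2-fold. Among all measured genes 45.8% lay above 0 and 7.32% were at least 2-fold higher. Of all gene names 4.21% were detected on the pubertal array only and 26.3% on neither. The part of these cells in the differences below was not tested. In such bulk cultures fewer cells of a type and less RNA per cell cannot be told apart.

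Glucose enters the cell through the facilitative transporters of the SLC2A family. SLC2A1, the widely expressed basal transporter, had signals of 1.84 in the pubertal and 4.62 in the infant culture, a difference of -1.32 ± 0.20 (2.50-fold lower). SLC2A3, a transporter of high affinity for glucose, stood at 0.348 and 0.855, a difference of -1.30 ± 0.21 from 1 of its 2 probes. The other SLC2A3 probe was well above background in neither culture. SLC2A8, a mostly intracellular transporter known from the testis, went the other way, at 2.02 and 1.52. Its difference was 0.41 ± 0.12, and its 3 probes ran from 0.32 to 0.56. The gap of 1.73 ± 0.24 between SLC2A8 and SLC2A1 does not depend on a scaling constant, and it lay between 1.61 and 1.88 under the alternatives.

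Hexokinase and the enzymes down to fructose bisphosphate all had values below 0, none by 2-fold, with a median of -0.49 that is 0.51 on the spike-in scale. HK1, the housekeeping hexokinase, had nearly equal signals of 9.97 and 10.02. Its difference of -0.01 ± 0.20 changes sign with quantile and loess normalization and some other settings. HK2, the inducible hexokinase, stood at 8.26 and 12.96, a difference of -0.65 ± 0.14, and its probes gave -0.87 and -0.43. GPI, which turns glucose phosphate into fructose phosphate, was at 29.6 and 51.9 (-0.81 ± 0.20).

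Phosphofructokinase commits sugar to glycolysis, and its 3 subunit genes differed in size. The liver-type subunit PFKL had 1.27 and 2.25, a difference of -0.82 ± 0.14 with its probes at -0.83 and -0.82. PFKM, the muscle type, differed by -0.33 ± 0.20, and PFKP, the platelet type, by -0.19 ± 0.20, which is within the scanner's error. The gap between PFKP and PFKL was 0.63 ± 0.25. PFKP was at 0.01 with quantile normalization.

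The enzymes from triose phosphates to pyruvate had a median of -0.69 over 9 genes, 8 of them below 0, and 2 below 0 on the spike-in scale. ENO1, the ubiquitous enolase, had 94.8 in the pubertal and 237 in the infant culture, a difference of -1.32 ± 0.14 (2.50-fold lower). Its probes, both printed above, gave -1.496 and -1.143. ENO2, the neuronal enolase, was dim, at 0.228 and 0.134, and its difference of 0.76 ± 0.24 pointed the other way. The gap between the enolases was 2.08 ± 0.28, and between 1.61 and 2.26 under the alternatives.

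PKM2, the array's name for the pyruvate kinase gene of most tissues, had 2.98 in the pubertal and 7.64 in the infant culture, a difference of -1.36 ± 0.14 (2.56-fold lower). Both of its probes were past 2-fold, at -1.31 and -1.40. Pyruvate kinase makes pyruvate and ATP in the last step of glycolysis. Its symbol was the only member name that did not occur in the macaque gene tables, where the other 33 did.

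GAPDH, the dehydrogenase often taken as a reference gene, was itself lower relative to the 75th percentile, at 94.2 and 149.8 multiples. The difference was -0.67 ± 0.12, with -0.79 for the probe elsewhere in the gene and -0.58 and -0.64 for the overlapping probes. PGK1, the next enzyme, which makes ATP, differed by -0.69 ± 0.13 over 3 of its 4 probes, which ran from -0.83 to -0.43. PGAM1, which moves the phosphate group before enolase, differed by -0.75 ± 0.20, and the triose isomerase TPI1 by -0.53 ± 0.20. With spike-in scaling these 4 are between 0.25 and 0.47.

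Aldolase splits the sugar into trioses. The main aldolase gene ALDOA was read by probes that disagreed, and its mean of -0.47 ± 0.14 is therefore uncertain. Probe GT_44k_23_P88963, printed above, gave 57.2 and 119 multiples, a difference of -1.06 ± 0.20. The other probe, GT_44k_24_P921584, gave 19.5 and 17.9 and a difference of 0.12 ± 0.20. Aldolase ALDOC, a brain-type form, had 1.63 and 3.04, a difference of -0.90 ± 0.20. The gap between the aldolases, 0.43 as reported, turned to -0.16 with the brightest probe of each gene.

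**Figure D2:**
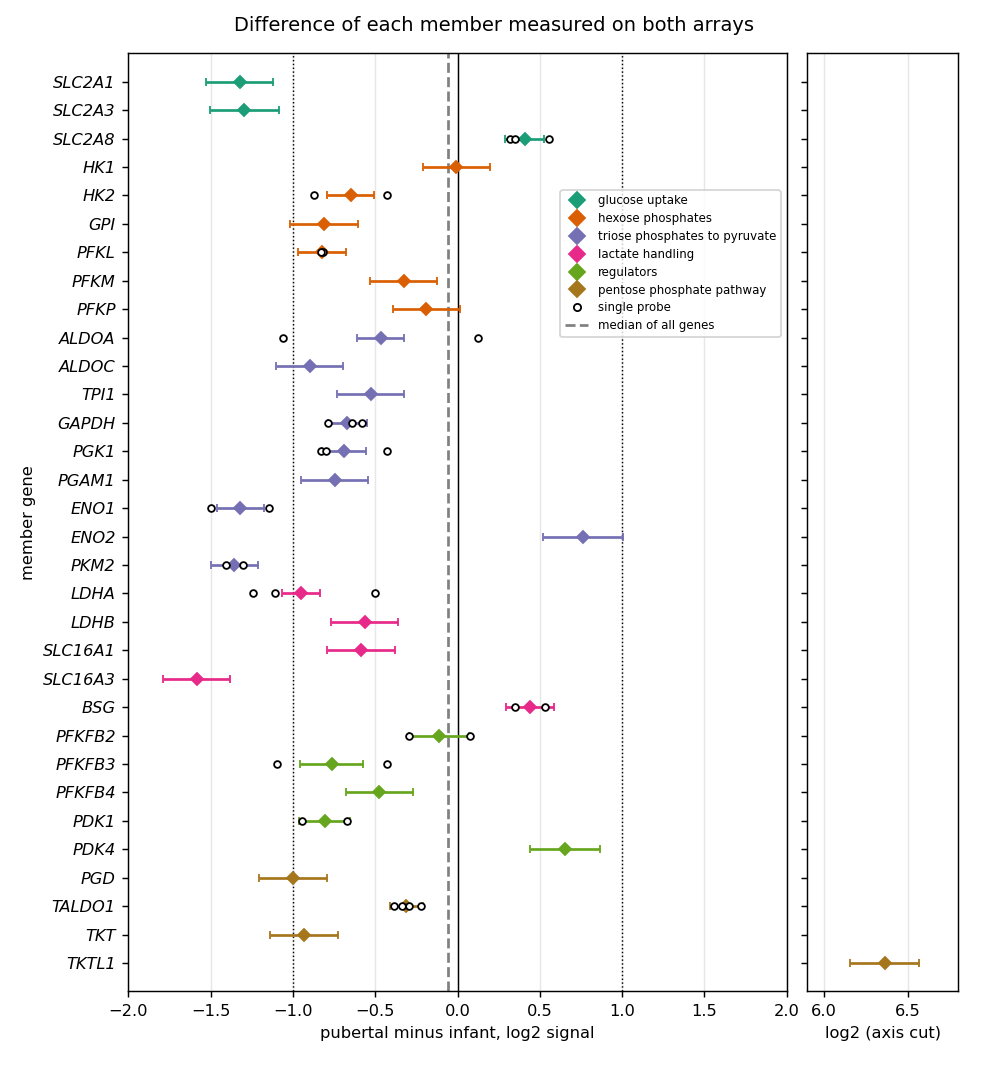
Difference in log2 signal, pubertal minus infant (horizontal axis, cut between the panels), of the 32 members measured on both arrays, as gene means (diamonds) with the scanner's error (bars) and, where a gene has several measured probes, each probe (open circles). Dotted lines mark 2-fold and the dashed line the median of all genes at -0.06; the 6 members at or beyond the lower dotted line are SLC2A1, SLC2A3, ENO1, PKM2, SLC16A3 and PGD, with PGD on the line, and every value moves right by 1.00 with spike-in scaling.

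Lactate dehydrogenase converts pyruvate to lactate and back, and monocarboxylate transporters carry lactate through the membrane with the help of basigin. LDHA, the subunit that favours lactate, had 23.2 in the pubertal and 44.9 in the infant culture, a difference of -0.95 ± 0.12 (1.93-fold lower). Its 3 probes all lay below 0, at -1.24, -1.11 and -0.50, and the last came from the brightest probe. LDHB, the heart-type subunit, had 203 and 299 and a difference of -0.56 ± 0.20. The gap of 0.39 ± 0.24 between the subunits turned to -0.06 with the brightest probes, so these data do not order them. Both were above 0 with spike-in scaling, at 0.05 and 0.43.

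SLC16A3, the exporter of cells with high lactate output, had 2.64 on the pubertal array against 7.92 on the infant array. That difference of -1.58 ± 0.20 (3.00-fold lower) was the lowest among the members and had rank 267 from the bottom among the 14243 genes. It rested on 1 probe and remained at -0.59 with spike-in scaling. SLC16A1, a more widely expressed lactate and pyruvate carrier, had 1.54 and 2.32 and a difference of -0.59 ± 0.20. Between these carriers the gap was 0.998 ± 0.29. SLC16A7, the carrier of high affinity for pyruvate, was well above background in neither culture with either of its probes, as was the case for 26.3% of all gene names. No member was detected in the infant culture alone, where 3.13% of all gene names were.

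BSG encodes basigin, the chaperone that brings SLC16A1 and SLC16A3 to the cell surface, and it did not share their direction. Its signals were 5.08 in the pubertal and 3.74 in the infant culture, a difference of 0.44 ± 0.14 with probes at 0.35 and 0.53. The gap between BSG and SLC16A3 was 2.03 ± 0.25, and between 1.94 and 2.03 under the alternatives.

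The regulators were measured in full, with 4 of 5 below 0 and a median of -0.48 that is 0.52 with spike-in scaling. PFKFB enzymes set the level of the sugar bisphosphate that activates phosphofructokinase. PFKFB3, the form with strong kinase activity, had 0.452 and 0.768, a difference of -0.76 ± 0.19 over 2 probes at -1.10 and -0.43. Its other 2 probes were well above background on the infant array alone. PFKFB4, known from the testis, differed by -0.48 ± 0.20, and PFKFB2, the heart form, by -0.11 ± 0.18 with probes on either side of 0.

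PDK enzymes switch off pyruvate dehydrogenase and so hold pyruvate back from the mitochondria. PDK1 had 0.633 and 1.11, a difference of -0.81 ± 0.15 with both probes below 0, and is at 0.19 with spike-in scaling. PDK4, which is known to rise in fasting, had 0.485 and 0.308 and a difference of 0.65 ± 0.21 from 1 of its 2 probes. The gap between them was 1.46 ± 0.26, and 0.97 at the lowest among the alternatives.

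**Figure D3:**
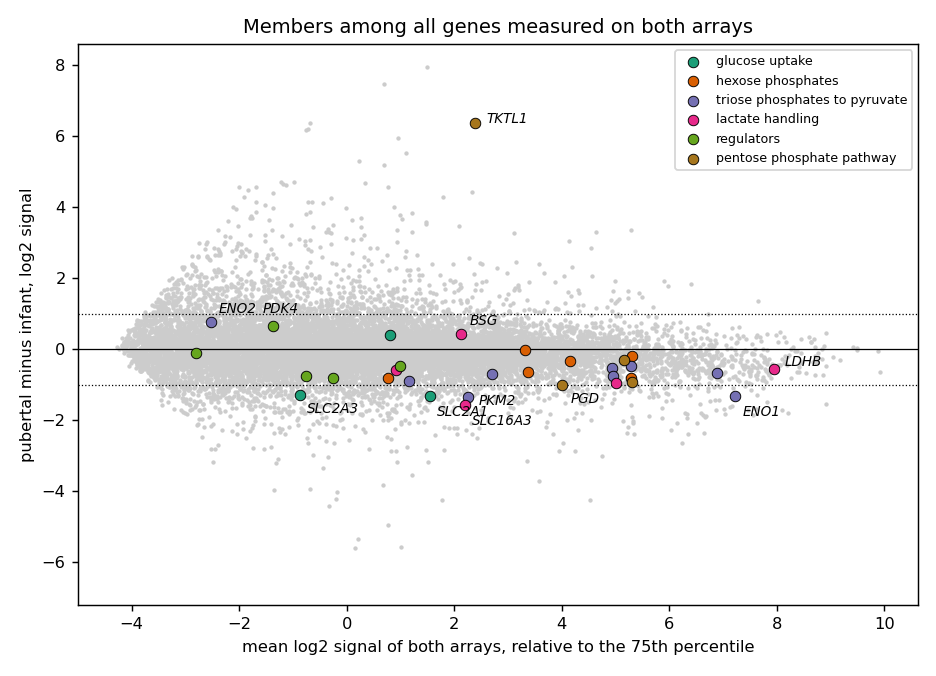
Difference in log2 signal, pubertal minus infant (vertical axis), against the mean log2 signal of both arrays (horizontal axis) for the genes measured on both arrays (grey, 14241 within the axes and 2 outside) and the members (coloured by role). Of the 32 members 27 lie between 0 and -1.58, while TKTL1 is at 6.36; dotted lines mark 2-fold, and the axis rises by 1.00 with spike-in scaling.

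In the pentose phosphate pathway PGD, TKT and TALDO1 parted from the transketolase-like genes. The 6 further genes of this pathway that were measured had a median of -0.24, with 5 below and 1 above 0. Of all measured genes 54.2% lay below 0. PGD, which makes ribulose phosphate and reducing power, had 11.3 in the pubertal and 22.7 in the infant culture, a difference of -1.0004 ± 0.20 that lies on the 2-fold mark. TKT, the general transketolase, had 28.8 and 54.9, a difference of -0.93 ± 0.20 (1.91-fold lower). TALDO1, the transaldolase, had 32.2 and 40.0 and a difference of -0.31 ± 0.10, with 4 probes from -0.39 to -0.22. On the spike-in scale TKT is at 0.06 and TALDO1 at 0.69.

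TKTL1, an X-linked relative of transketolase known from the testis and from tumours, had the highest difference of the members. Its only probe read 47.7 in the pubertal and 0.579 in the infant culture, in processed intensity 19392 and 222. The difference was 6.36 ± 0.21 (82.3-fold higher), the fourth highest among the 14243 genes measured on both arrays. It was between 5.98 and 7.36 under the alternatives, and the spot lay in no area counted as disturbed. The gap between TKTL1 and TKT was 7.30 ± 0.29. TKTL2, an intronless relative expressed in the testis, was well above background on the pubertal array only, as were 4.21% of all gene names. Its signal was 0.104 there and 0.00993 on the infant array, and the fold against the lowest detected signal of the infant array was at least 2.14-fold higher.

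Of the 14 germ cell markers 8 were measured on both arrays, and 7 of these were above 0, where 45.8% of all measured genes were. The other, UCHL1, was at -1.52. Another 4 were detected in the pubertal culture only, as were 4.21% of all gene names. In neither culture were GFRA1 and STRA8 detected, as held for 26.3% of all gene names. UCHL1 alone gave 12.0 and 34.3 of the summed signals of 27.6 and 39.1, so the order of these sums rests on that gene. The highest values were those of DAZL, which differed by 4.72 ± 0.25, STK31 (4.71 ± 0.27), TEX101 (3.48 ± 0.29) and MAEL (3.37 ± 0.25). ID4 was at 3.31 ± 0.21, ZBTB16 at 0.98 ± 0.21 and UTF1 at 0.24 ± 0.12. SYCP3, a protein of the meiotic chromosome axis, was 34.5-fold higher in the pubertal culture. That is the ratio to an infant signal not well above background and no lower bound. The germ cell helicase DDX4 was at least 13.2-fold higher, as a lower bound. LDHC, the lactate dehydrogenase of germ cells, had 3.08 and 0.509, a difference of 2.60 ± 0.21 (6.06-fold higher). PGK2 and GAPDHS, the forms of late germ cells, were not well above background on either array. PDHA2, the germ cell form of a pyruvate dehydrogenase subunit, was detected in the pubertal culture only (at least 1.67-fold higher). The part of germ cells in the TKTL1 value was not tested.

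Around the members lay 78 further genes of sugar metabolism, 77 of them on the array and 55 measured on both arrays. Their median was -0.18, with 35 below and 20 above 0 (54.2% and 45.8% of all measured genes). At least 2-fold lower were 7 of them (12.7%, against 6.32% of all measured genes), and LDHC alone was at least 2-fold higher, where 7.32% of all measured genes were. Among the other isozymes and transporters, SLC2A14 differed by -1.83 ± 0.21. SLC2A14 is a near copy of SLC2A3, and the probes of such genes may not tell their transcripts apart in the monkey.

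Of 9 further regulators of sugar metabolism 4 were at least 2-fold lower, where 6.32% of all measured genes were. Among them were the hypoxia factors HIF1A (-1.16 ± 0.20), known to drive many glycolysis genes, and EPAS1 (-1.32 ± 0.20). The others were the glucose-sensing factor MLXIP (-1.35 ± 0.11, with 4 probes from -1.89 to -0.88) and the energy sensor subunit PRKAA2 (-1.26 ± 0.22). All 4 were below 0 under every alternative that could be computed, spike-in scaling included (-0.16, -0.33, -0.35 and -0.26). ARNT, the partner of the hypoxia factors, differed by -0.03 ± 0.16. The median of these regulators was -0.66, which is the value of MYC. The 2 measured MYC probes gave -1.69 and 0.37, so that value is uncertain. PRKAA2 was dim, at 0.0779 and 0.187. With normexp background correction PRKAA2 was at -0.59 and MLXIP at -0.96, both short of 2-fold. HIF1A was also short of it with quantile (-0.93) and loess (-0.96) normalization.

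Of 6 enzymes that divert sugar elsewhere 5 were above 0, where 45.8% of all measured genes were, with a median of 0.25. AKR1B1 alone was below. Of the 5, PHGDH (0.06 ± 0.12) and GPD2 (0.11 ± 0.26) lay within the scanner's error and were below 0 with median scaling. GPD1 (0.42 ± 0.14) was at -0.21 with its brightest probe, so the group has no clear direction. AKR1B1, the aldose reductase that makes sorbitol, had 22.8 and 51.3 and differed by -1.17 ± 0.20, whereas SORD, the next enzyme of that route, differed by 0.72 ± 0.17. In the pentose phosphate group H6PD, a sugar phosphate dehydrogenase of the endoplasmic reticulum, had a mean of -1.01 ± 0.13 from 3 probes that ran from -2.55 to -0.04 and is uncertain. PDHA1, a subunit of pyruvate dehydrogenase, differed by 0.14 ± 0.20 and turned to -0.02 with median scaling. Other genes of that complex were PDHB (-0.10 ± 0.12), DLAT (-0.20 ± 0.21), DLD (-0.51 ± 0.20) and PDHX (-0.51 ± 0.20). PDHB was at 0.44 with its brightest probe, and all of them are above 0 with spike-in scaling. GYS2, the liver-type glycogen synthase, was detected in the pubertal culture only (at least 5.27-fold higher).

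**Figure D4:**
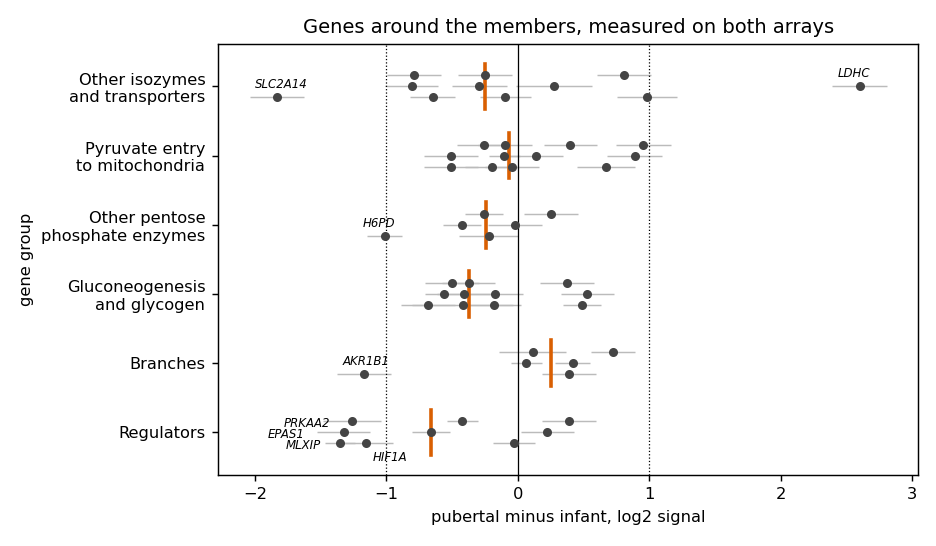
Difference in log2 signal, pubertal minus infant (horizontal axis), of 55 further genes of sugar metabolism measured on both arrays, by group (vertical axis), with the scanner's error as bars and the group median as an orange line. Dotted lines mark 2-fold, and the named genes are those past it, LDHC being the only one to the right; all values move right by 1.00 with spike-in scaling.

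Probes of the same gene mostly pointed the same way. Of the 14 members with several measured probes, 12 had all of them on the same side of 0 (85.7%, against 68.8% of the 4767 such genes on the array), and the exceptions were ALDOA and PFKFB2. The median SD between probes was 0.21 for these members and 0.21 for all such genes. In 28 of the 32 members the difference was over 2 times the scanner's error, 23 of them lower and 5 higher. Over all measured genes 49.1% passed that mark, 27% lower and 22% higher. No member spot was saturated or lay in a disturbed area.

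**Figure D5:**
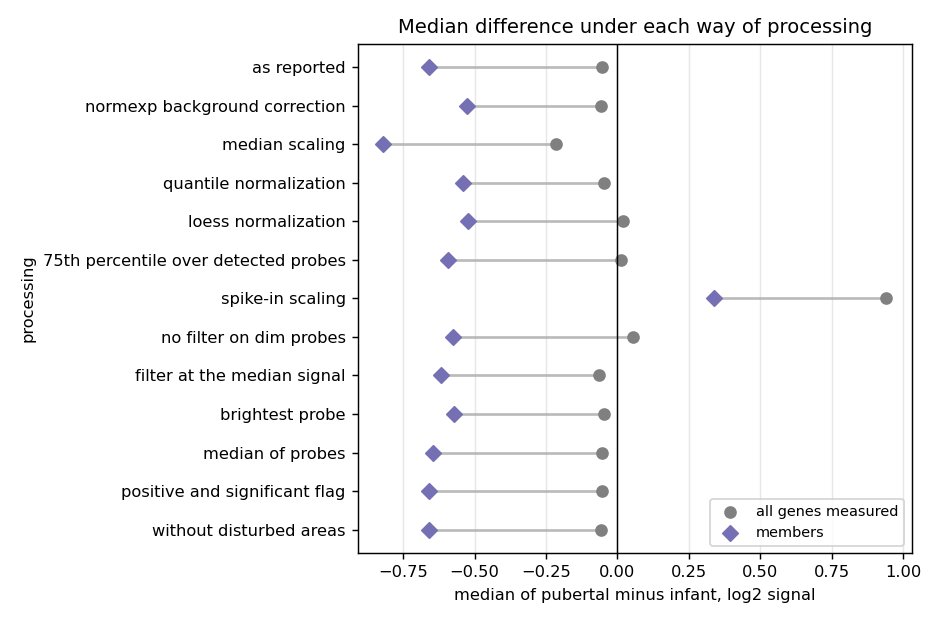
Median difference in log2 signal, pubertal minus infant (horizontal axis), of the members (diamonds) and of all genes measured (circles) as reported and under 12 alternative ways of processing (vertical axis). The members lie left of all genes throughout, at -0.66 against -0.06 as reported and at 0.34 against 0.94 with spike-in scaling, the only setting with the members above 0.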

How the data were processed

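The members and lists were chosen with earlier results of these data known. The deposited files hold spot intensity, which the authors obtained, per the file headers, with Agilent Feature Extraction 10.5.1.1. That software subtracted background, detrended each array and set a surrogate for low values, per the file headers, and the probes are human (hg18). The deposited 0 or 1 flags gave background, saturation and outliers.

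Of 51538 gene spots per array, 96 pubertal and 91 infant outliers were left out, and none was saturated. Log2 intensity minus the array's 75th percentile (406.7 and 382.4) was averaged over spots of a probe. Detection of a probe required 50% or more of its spots to be well above background. A gene detected on 1 array is given as a bound: its signal over the lowest detected one of the dim array (-4.29 pubertal, -4.36 infant), or over its own dim signal where that is higher. In the second case, as for SYCP3, the value is the measured ratio and no lower bound. All members are named, and of the further genes those past 2-fold and a few fixed ones, of which 1 is not reported here; other genes, and the isozyme gaps, were chosen after their values were seen. Alternatives changed background correction, scaling, filter, probe summary, detection flag and disturbed areas. Functions were tested on simulated data. Python 3.11.15, pandas 2.3.3, R 4.3.3 and limma 3.58.1 were used.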

Additional observations from a re-analysis of the deposited data

How the results depend on the processing

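Median difference of the members: it was -0.66 as reported and 0.34 with spike-in scaling, and lay between -0.82 and -0.52 under the other 11 alternatives. The count of members at least 2-fold lower, 6 as reported, was 0 with spike-in scaling. Under the other 11 alternatives it lay between 4 (quantile normalization) and 9 (median scaling). It was 18 at a 1.5-fold threshold and 0 at a 4-fold threshold. The count at least 2-fold higher, 1 as reported, was 5 with spike-in scaling, 2 with no filter on dim probes and 3 at a 1.5-fold threshold. Over all genes, those lower numbered 900 as reported, 568 with normexp background correction, 123 with spike-in scaling, 1485 with no filter on dim probes, 1363 with the weaker detection flag, 2392 at 1.5-fold and 122 at 4-fold. Those higher numbered 1042 as reported, 553, 6495, 2081, 1710, 2142 and 238 in the same order. With median scaling 1305 were lower and 785 higher. Of calls past 2-fold, 53.7% were higher as reported, 37.6% with median scaling and 98.1% with spike-in scaling. No paired analysis was possible because each group has 1 array. The number of arrays limits the precision, and dim members such as ENO2, PFKFB2 and TKTL2 lie near background.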

Other observations

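The switch of pyruvate dehydrogenase was not lower as a set. Its kinases PDK2 (0.89 ± 0.21) and PDK3 (0.40 ± 0.20) and its phosphatases PPM2C (0.95 ± 0.21) and PDP2 (0.67 ± 0.22) had higher signals on the pubertal array, while PDK1 (-0.81) had a lower one. None of these passed 2-fold. The mitochondrial pyruvate carrier genes BRP44 and BRP44L differed by -0.26 and -0.10.

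In glycogen metabolism the phosphorylases PYGL (0.53 ± 0.20) and PYGB (0.49 ± 0.14), which release sugar from glycogen, were above 0, while the third form, PYGM, was at -0.42 ± 0.39. The glycogen synthase GYS1 (-0.68 ± 0.20) and the branching enzyme GBE1 (-0.41 ± 0.20) were below 0, whereas the synthase GYS2 was at least 5.27-fold higher in the pubertal culture. On the spike-in scale GYS1 is at 0.32. These genes were picked after their values were seen, and with 1 array in each group no test was made.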
